A study of Homo sapiens with 6 samples.

Results

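A set of 9 genes of Polycomb repression and DNA methylation was followed in MCF10A cells, a widely used human breast epithelial line that does not form tumours by itself, here carrying ErbB2, a receptor tyrosine kinase. They are EZH2, SUZ12, EED, DNMT1, DNMT3A, DNMT3B, UHRF1, HELLS and SUV39H1. These 9 of all 18417 genes tested were chosen by name, not by a rule on their values. Earlier results of these data were known when they were chosen. A gene was read by a probe set with 1 gene symbol in the platform annotation, and where a gene had several such probe sets by the brightest one, on the mean of the 6 arrays. All cells were grown for 7 days in a 3-D culture on reconstituted membrane, with DMEM/F12 medium with horse serum, insulin, cholera toxin and hydrocortisone. The labels gave 3 arrays of RB-proficient and 3 arrays of RB-deficient cells, whose titles carry the tags miNS and miRB without spelling them out. Cells and matrix were lysed together in the culture well. The comparison therefore asked how the RNA of these chromatin genes differed between cells labelled proficient and deficient for RB, the retinoblastoma protein, which holds E2F factors in check. The labels do not tie the arrays of a group to separate cultures or clones. The p-values thus cover no more than the array-to-array spread, and that spread may be technical.

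Polycomb repressive complex 2 places methyl groups on lysine 27 of histone H3. EZH2 is its catalytic subunit, SUZ12 holds the complex together and EED binds the finished mark and stimulates the enzyme. DNMT1 copies DNA methylation onto the new strand after replication, and UHRF1 brings it to hemimethylated DNA. DNMT3A and DNMT3B set methylation on unmethylated DNA, HELLS is a chromatin remodeller of the SNF2 family needed for normal DNA methylation, and SUV39H1 methylates lysine 9 of histone H3 in heterochromatin. Several of these genes, EZH2, DNMT1, UHRF1 and HELLS among them, are textbook targets of E2F factors in cycling cells, which is why their promoters are shown first.

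Promoter windows of 300 bases, from 250 before to 50 after a RefSeq transcript start on GRCh38.p14, existed for all 9 genes, with 18 windows in all. The E2F letters searched were TTTCCCGC, TTTGGCGC, TTTCGCGC and TTTGCCGC on both strands. They occurred in a window of 5 of the 9 genes (EZH2, SUZ12, DNMT1, UHRF1 and HELLS), against 5.51% of the 14239 tested genes with a window, and 3.31% of all 35116 windows held them. The median tested gene had 1 window, whereas DNMT3A had 6, UHRF1 had 3, and EZH2 and SUV39H1 had 2 each. The stretches below show these letters in capitals for the 5 genes, and EED, the PRC2 subunit without them, for comparison. Each stretch is 140 bases long, 5′ to 3′ on the gene's strand, and capitals that begin with GC are the reverse strand of the motif. They lie at chr7:148884272-148884411 on the minus strand, chr17:31936777-31936916 on the plus strand, chr19:10194934-10195073 on the minus strand, chr19:4909381-4909520 on the plus strand, chr10:94545668-94545807 on the plus strand and chr11:86244633-86244772 on the plus strand.
EZH2: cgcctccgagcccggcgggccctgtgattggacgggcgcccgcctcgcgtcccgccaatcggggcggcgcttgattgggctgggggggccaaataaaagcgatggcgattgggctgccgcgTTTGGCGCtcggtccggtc
SUZ12: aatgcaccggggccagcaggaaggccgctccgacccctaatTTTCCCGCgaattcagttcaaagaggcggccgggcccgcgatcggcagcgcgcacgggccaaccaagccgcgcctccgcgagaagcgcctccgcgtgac
DNMT1: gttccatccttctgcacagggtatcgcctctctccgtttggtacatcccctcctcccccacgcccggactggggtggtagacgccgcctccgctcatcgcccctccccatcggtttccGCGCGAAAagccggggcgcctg
UHRF1: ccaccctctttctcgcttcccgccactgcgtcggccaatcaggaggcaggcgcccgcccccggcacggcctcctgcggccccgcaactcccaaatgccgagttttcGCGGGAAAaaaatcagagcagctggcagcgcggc
HELLS: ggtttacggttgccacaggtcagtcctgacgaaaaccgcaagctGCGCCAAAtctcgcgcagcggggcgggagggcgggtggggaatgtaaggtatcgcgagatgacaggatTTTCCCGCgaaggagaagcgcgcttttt
EED: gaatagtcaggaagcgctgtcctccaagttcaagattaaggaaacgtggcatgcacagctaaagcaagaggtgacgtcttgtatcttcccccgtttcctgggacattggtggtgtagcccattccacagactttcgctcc

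The letters sat close to the start site in 4 of the 5 genes. Counted from the first transcribed base as 1, with no base 0, they covered bases 2 to 9 of EZH2, -2 to 6 of DNMT1, -14 to -7 of UHRF1, and both -76 to -69 and -8 to -1 of HELLS. In SUZ12 they lay farther upstream, at -189 to -182. A second UHRF1 window held them at -160 to -153. The same 5 genes were found when the first T of the motif was left off, a looser form that 21.0% of tested genes held. CCAAT, on either strand, occurred in 7 of the 9 genes, all but DNMT1 and DNMT3A, against 42.2% of tested genes. The letters TTTGAA or TTCGAA, known as CHR elements of mitotic genes, occurred in SUZ12 and DNMT3A only, against 17.4% of tested genes. In 6 of the 9 genes the richest window held at least 30 CpG dinucleotides, against 37.0% of tested genes. The 1 window searched for DNMT3B held 3, and any other start of that gene was not covered. A match of letters is a description and does not show that a factor binds there.

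Values are log2 of the deposited intensity after median scaling of the arrays, with intensities raised to at least 1, so 0 is the floor. Differences are RB-deficient minus RB-proficient on this log2 scale, with n = 3 per group. None of the 9 genes passed limma's test at the adjusted threshold of 0.05 over all genes, where 0.00543% of genes passed (1 of 18417). At an unadjusted p under 0.05 the count was also 0 of 9, against 13.7% of all genes, but DNMT1 lay at 0.0501 and was under 0.05 in 10 of the 19 alternative settings, and SUV39H1 in 2 others. For none of the 9 were the groups free of overlap, against 22.4% of all genes. Of the 9, 5 had a difference above 0, where 41.4% of all genes did. The median difference of the 9 was 0.09, and that of all genes was -0.21. The median of the 9 was -0.21 without RB-deficient arrays 1 and 2, -0.06 when probe sets of a gene were averaged and -0.02 to 0.33 with single arrays left out, so its sign is not settled. Leaving out RB-deficient arrays 1 and 2 was added after seeing the data. Here and below, values without these arrays rest on RB-deficient array 3 alone. The 95% interval of each of the 9 differences included 0. The intervals are wide, so these values do not show that the genes were at equal levels. In simulated data this fit recovered 0.4% of genes given a 2-fold change. A gene that did not pass may therefore still differ by that much.

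The labels and arrays were checked first. RB1 averaged 6.81 ± 0.95 (SD) in RB-proficient arrays and 4.86 ± 1.31 in RB-deficient arrays, and the groups overlapped (difference -1.95, adjusted p 0.302; -0.77 without RB-deficient arrays 1 and 2). RB1 RNA was thus lower on average but not absent under the RB-deficient label. ERBB2 averaged 5.25 ± 0.33 and 3.95 ± 0.26, lower in RB-deficient arrays with no overlap (difference -1.31, adjusted p 0.288 in limma's fit). Without RB-deficient arrays 1 and 2 the ERBB2 difference was -1.07. The RB-deficient arrays varied more, with a median SD per gene of 0.84 against 0.40. Across genes, Pearson's r was 0.67 to 0.75 between RB-deficient arrays and 0.90 to 0.92 between RB-proficient ones, and RB-deficient arrays 1 and 2 had 4.71% and 1.62% of genes at the floor, against at most 0.684% in the other 4. Of 4 reference genes, ACTB and GAPDH differed by -1.92 and -1.23 without overlap, and TBP and HPRT1 by -0.94 and 0.24 with overlap. Of 12 mammary epithelial markers 10 were measured and 0 reached the floor; 9 had a difference below 0, and 5 lay lower and 1 higher with no overlap, against 15.3% and 7.12% of all genes. Their summed scaled intensity was 5082 to 7381 in RB-proficient arrays and 3249 to 3842 in RB-deficient arrays, and the part of this in the results below was not tested. The one above 0 was EPCAM, an epithelial surface protein, at 9.99 to 10.39 in all 6 arrays. Summed intensities of 7 fibroblast markers were 143.8 to 191.7 and 141.2 to 291.9, of 5 endothelial markers 477 to 598.2 and 307.1 to 359.7, and of 4 measured leukocyte markers 75.7 to 85.7 and 70.8 to 126.9, in the same order of groups, and COL3A1 was the one of these at the floor in an array. The endothelial sum was mostly CDH5, which read 8.70, 8.98 and 9.10, then 8.29, 7.82 and 8.07. Of the 5 endothelial markers, 3 had a difference below 0 and 2 above. In bulk samples, fewer cells of a type and less RNA per cell cannot be told apart.

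**Figure D1:**
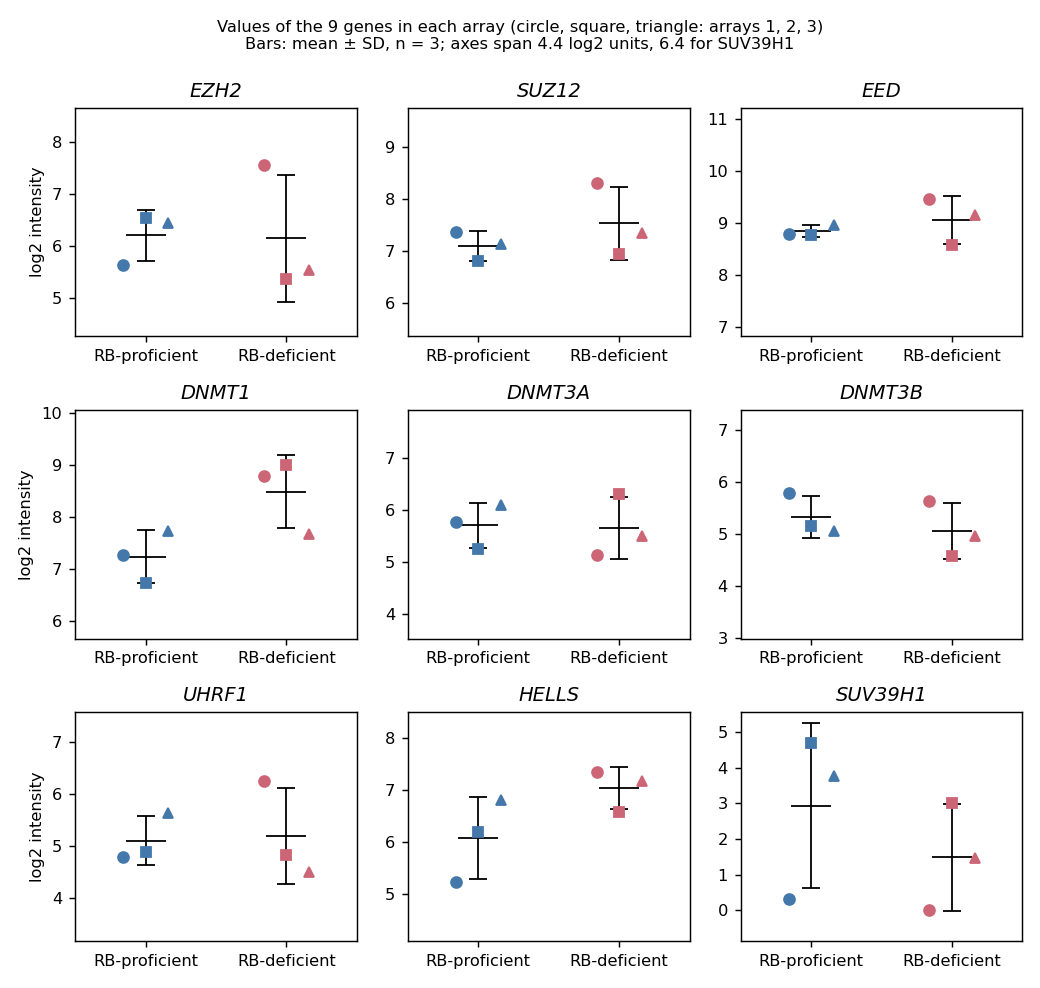
Log2 intensity of each of the 9 genes in each array, RB-proficient in blue and RB-deficient in red, with circles, squares and triangles for arrays 1, 2 and 3 and black bars for the mean ± SD (n = 3). The 2 groups overlap in every panel, and the circle of the RB-deficient group is the highest of the 6 values for EZH2, SUZ12, EED, UHRF1 and HELLS.

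The 3 PRC2 core genes among the 9 did not differ beyond the spread between arrays. EZH2 read 5.64, 6.54 and 6.44 in RB-proficient arrays and 7.55, 5.37 and 5.53 in RB-deficient arrays 1 to 3. RB-deficient array 1 was thus above, and arrays 2 and 3 below, all RB-proficient values, and the means were nearly the same (difference -0.06, SE 0.67, 95% interval -1.56 to 1.44, adjusted p 0.977). SUZ12 read 7.36, 6.80 and 7.13, then 8.31, 6.94 and 7.34. For SUZ12 RB-deficient array 1 stood above the other 5 values, which overlapped, and the difference was 0.43 (SE 0.53, interval -0.77 to 1.63, adjusted p 0.737). EED read 8.77, 8.77 and 8.96, with an SD of 0.11, then 9.46, 8.56 and 9.14, with an SD of 0.45. Of RB-deficient arrays, 2 lay above and 1 below all RB-proficient values of EED, and the difference was 0.22 (SE 0.48, interval -0.87 to 1.30, adjusted p 0.859).

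DNMT1, the maintenance methyltransferase, had the largest upward difference of the 9 genes. It read 7.27, 6.73 and 7.73 in RB-proficient arrays and 8.79, 8.99 and 7.68 in RB-deficient arrays. RB-deficient arrays 1 and 2 lay over 1 log2 unit above all RB-proficient values, while array 3 lay just below RB-proficient array 3, which is the only overlap. The difference was 1.25 (2.37-fold, SE 0.56, interval -0.00083 to 2.49), with an unadjusted p of 0.0501 and an adjusted p of 0.365. It was 0.44 without RB-deficient arrays 1 and 2, the arrays that stood apart, and 1.65 without array 3 (adjusted p 0.146). DNMT1 was above 0 in all 19 alternative settings and passed in 0 of them, with adjusted p-values from 0.146 to 0.731. The groups of DNMT1 did not overlap after quantile normalization, after centring each array on its gene median or without scaling.

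The de novo methyltransferases were close to 0 difference. DNMT3A read 5.78, 5.24 and 6.10, then 5.14, 6.31 and 5.49, so that RB-deficient arrays held both the highest and the lowest of the 6 values. Its difference was -0.06 (SE 0.53, interval -1.25 to 1.13, adjusted p 0.969). DNMT3B read 5.80, 5.16 and 5.06, then 5.64, 4.58 and 4.97. RB-deficient arrays 2 and 3 were below, and array 1 within, the RB-proficient range of DNMT3B, and the difference was -0.28 (SE 0.52, interval -1.44 to 0.88, adjusted p 0.828). Whether DNMT1 differed from the de novo enzymes in its response was not tested.

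HELLS, the remodeller, had the next largest upward difference, reading 5.24, 6.20 and 6.80 in RB-proficient arrays and 7.36, 6.58 and 7.17 in RB-deficient arrays. RB-deficient arrays 1 and 3 lay above all RB-proficient values, and array 2 lay below RB-proficient array 3. The HELLS difference was 0.96 (1.94-fold, SE 0.56, interval -0.30 to 2.21, adjusted p 0.476). It was 1.09 without RB-deficient arrays 1 and 2 and 0.54 without RB-proficient array 1, which held the lowest value. UHRF1 read 4.77, 4.88 and 5.63, then 6.24, 4.82 and 4.49, with RB-deficient array 1 the highest and array 3 the lowest of all 6. The UHRF1 difference was 0.09 (SE 0.60, interval -1.25 to 1.43, adjusted p 0.958), and without RB-deficient arrays 1 and 2 it was -0.61. UHRF1 was the only one of the 9 genes with a second probe set, and the 2 disagreed. The dimmer probe set, 8024900, read 4.01, 3.22 and 4.60, then 4.02, 1.18 and 3.19, a difference of -1.14 (SE 0.78, unadjusted p 0.180), against 0.09 for probe set 8032922.

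SUV39H1, the histone H3 lysine 9 methyltransferase, was the least precise of the 9. It read 0.32, 4.70 and 3.77 in RB-proficient arrays and 0, 3.00 and 1.46 in RB-deficient arrays, so each group held 1 value at or close to the floor. The difference was -1.44 (SE 1.13, interval -3.97 to 1.09, adjusted p 0.590). It was -2.75 without RB-proficient array 1 and -0.23 when the floor was raised to 16. The size of this difference therefore depends on the floor and on single arrays.

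**Figure D2:**
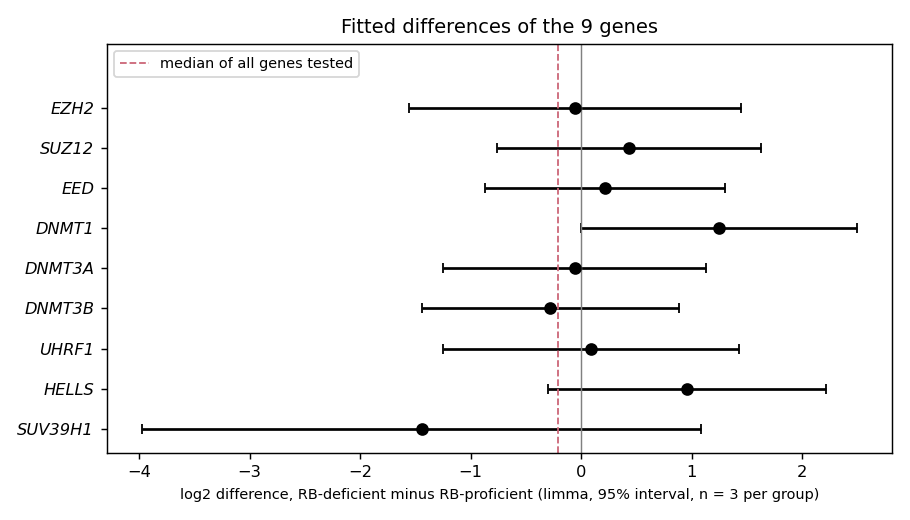
Fitted log2 difference of each of the 9 genes, RB-deficient minus RB-proficient, with the 95% interval from limma (n = 3 per group); the dashed line marks the median of all genes tested (-0.21). Every interval includes 0, and that of DNMT1 starts at -0.00083.

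Several of the genes stood high in the same array. RB-deficient array 1 held the highest of the 6 values for 5 of the 9 genes (EZH2, SUZ12, EED, UHRF1 and HELLS), where it did so for 25.9% of all genes. In that array, relative to the RB-proficient mean, DNMT1 was at 1.55, EZH2 at 1.35, HELLS at 1.28, SUZ12 at 1.21 and UHRF1 at 1.15, and the median over all genes was -0.14. These are the 5 genes whose promoter windows hold the E2F letters shown above, an overlap seen after the values were known and not tested. In the same array EED was at 0.62, DNMT3B at 0.30, DNMT3A at -0.56 and SUV39H1 at -2.93. In RB-deficient array 2 the 5 genes with the letters ranged from -0.84 (EZH2) to 1.75 (DNMT1), and in array 3 from -0.68 (EZH2) to 1.09 (HELLS). In RB-deficient array 1 the 784 tested genes with the letters had a median of -0.19, and the 13455 with a window but without them -0.20. Over all arrays their median differences were -0.35 and -0.24. The median of 14 proliferation markers was 0.56, -1.43 and -0.25 in RB-deficient arrays 1, 2 and 3. DNMT1 was at 1.55, 1.75 and 0.44 in the same arrays, and the part of proliferation in these values was not tested.

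**Figure D3:**
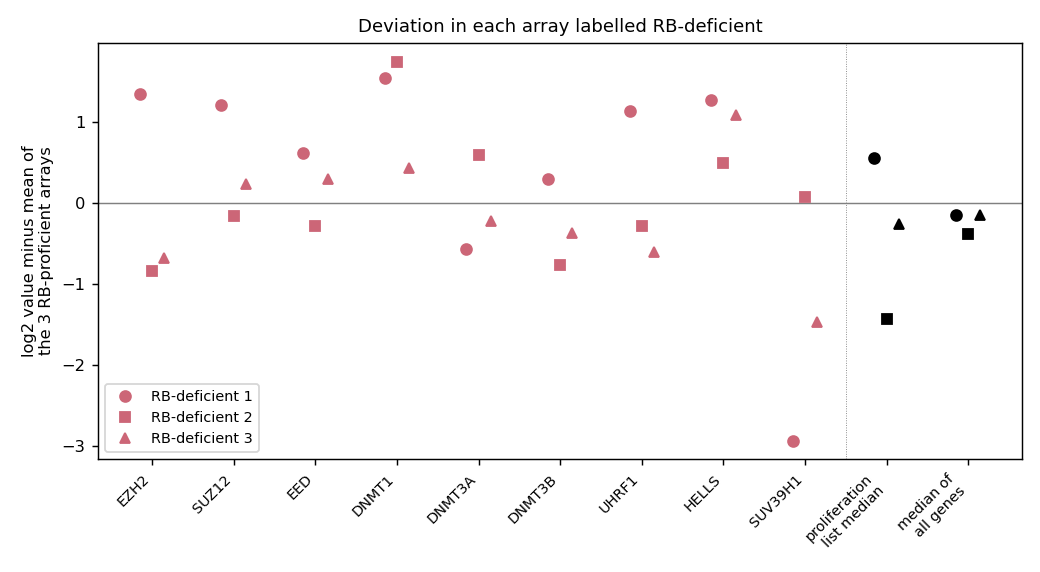
Log2 value of each of the 9 genes (red) in each RB-deficient array, minus the mean of the 3 RB-proficient arrays, beside the median of 14 proliferation markers and of all genes (black). Array 1 (circles) is above 0 for 7 of the 9 genes, and array 2 (squares) for DNMT1, DNMT3A, HELLS and SUV39H1.

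Likeness of pattern was measured as the mean absolute difference between log2 values over the 6 arrays, each gene centred on its own mean, against 103 other genes of the lists. Nearest to EZH2 were TYMS, the thymidylate synthase (0.21), and PHF19, a PRC2 accessory subunit (0.30). For EZH2 the median over the 103 genes and the rest of the 9 was 0.73. Nearest to UHRF1 were PHF19 (0.14) and MBD4, a DNA glycosylase that binds methylated CpG (0.17). SUZ12 was nearest to KDM2B, a subunit of a variant PRC1 (0.15), and GADD45B (0.15), and EED to HOXB13 (0.17) and TDG, a DNA glycosylase (0.18). HELLS was nearest to PCNA, the replication clamp (0.33), and PAX7 (0.33). DNMT1 was nearest to the germline genes MAGEC1 (0.32) and TDRD1 (0.33). DNMT3B was nearest to ZBTB33 (0.21) and GADD45A (0.22), DNMT3A to MBD2, a reader of methylated DNA (0.31), and PHC2 (0.34), and SUV39H1 to PAX6 (0.69) and MKI67 (0.92). Among the 9 themselves, SUZ12 and EED were nearest to each other (0.24), as were EZH2 and UHRF1 (0.30). With 6 arrays such distances only describe these libraries.

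Most partner genes of the same pathways had differences below 0. Whether they differ from the 9 genes as a group was not tested. Over 6 lists, 62 of 68 genes were measured, and the others were not analysed here. Of the 62, 47 had a difference below 0 (75.8%, against 58.6% of all genes), 14 lay lower with no overlap between groups (22.6%, against 15.3%) and 0 lay higher with no overlap (against 7.12%). At an unadjusted p under 0.05, 9 lay lower (14.5%, against 10.8%) and 0 higher (against 2.85%). Of the 62, 48 remained in the fit without the dimmest 50% of genes. In that fit 1414 of all 9208 genes lay lower at this threshold, and their median difference was -0.31. The shares of all genes thus shift with brightness, and its part in the counts of the 62 was not tested. None of the 62 passed over all genes in limma's fit, and none of those fitted passed in 19 alternative settings. The median difference of the 62 was -0.67. Of the 4 reference genes, ACTB, GAPDH and TBP also had differences below 0 and HPRT1 did not. The median of the 4 was -1.08, and the part of the reference genes in these values was not tested.

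Among the other core and accessory PRC2 subunits, 6 of 8 had a difference below 0, with a median of -1.03, or -0.35 without RB-deficient arrays 1 and 2. In 3 of the 8 (37.5%) the groups did not overlap, all lower, against 15.3% of all genes. They were EZH1, PHF1 and RBBP7, and RBBP7 differed by -0.69 (SE 0.50, adjusted p 0.560). EZH1, the alternative catalytic subunit known for its place in non-dividing cells, read 5.95, 7.08 and 6.72, then 4.76, 5.52 and 5.69. Every value of EZH1 in RB-deficient arrays lay below every RB-proficient value, and the difference was -1.26 (2.40-fold lower, SE 0.53, adjusted p 0.344). PHF1, an accessory subunit that reads histone H3 lysine 36 methylation, read 5.56, 4.46 and 5.44, then 2.32, 3.72 and 4.32, also without overlap (difference -1.70, SE 0.64, adjusted p 0.291; -0.83 without RB-deficient arrays 1 and 2). MTF2, a related accessory subunit, differed by -1.59 (SE 0.76, adjusted p 0.391), with overlap, and by -0.03 without RB-deficient arrays 1 and 2.

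The 3 pairs of paralogs were compared within arrays, as the change of one gene minus the change of the other. EZH2 minus EZH1 gave 1.21 on the log2 scale, with no overlap between the groups. Its SD was 0.14 in RB-proficient arrays and 1.70 in RB-deficient arrays, where array 1 held both the highest EZH2 and the lowest EZH1 value. The size of this value therefore rests largely on RB-deficient array 1. The exact two-sided permutation p was 0.10, the smallest that 3 against 3 arrays can give, and 0.30 after adjustment over the 3 pairs. UHRF1 minus UHRF2 gave 1.67 (exact permutation p 0.40, adjusted 0.60) and SUV39H1 minus SUV39H2 gave -1.33 (exact permutation p 0.70, adjusted 0.70), both with overlap. Without RB-deficient arrays 1 and 2 the EZH2 minus EZH1 value was 0.22 and the UHRF1 minus UHRF2 value -1.02. UHRF2, a relative of UHRF1 that also binds modified cytosine, read 6.33, 5.88 and 6.91, then 3.45, 4.15 and 6.79, so RB-deficient array 3 stayed within the RB-proficient range. SUV39H2, the paralog of SUV39H1, read 8.35, 7.49 and 8.21, then 8.00, 7.39 and 8.32, and differed by -0.11 (SE 0.52, adjusted p 0.938; 0.31 without RB-deficient arrays 1 and 2).

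**Figure D4:**
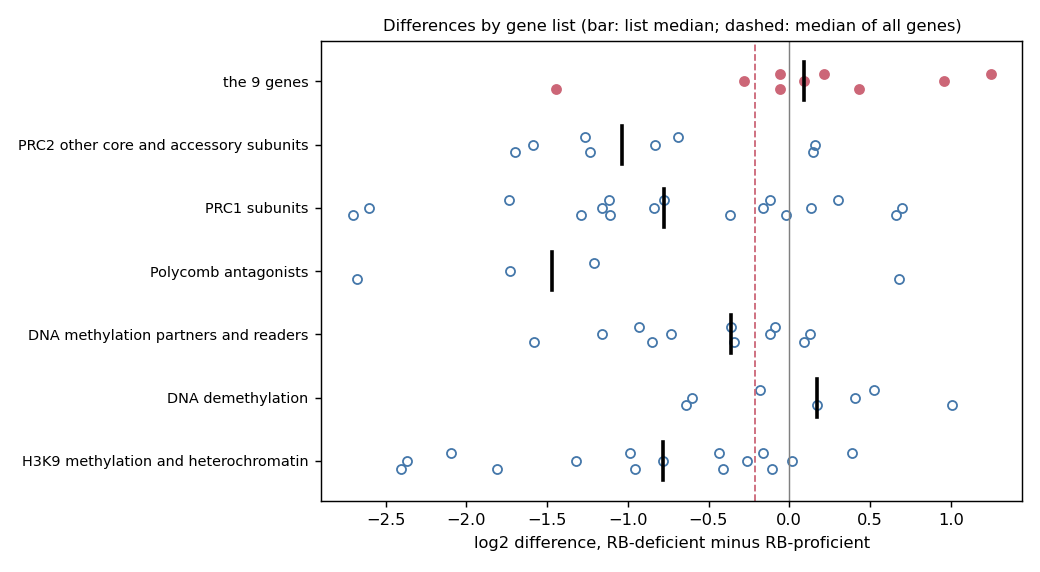
Log2 differences, RB-deficient minus RB-proficient, of the 9 genes (filled red) and of 6 lists of partner genes (open blue); black bars mark each list's median and the dashed line the median of all genes (-0.21). The median of the 9 genes is 0.09, and those of the lists of other PRC2 core and accessory subunits, PRC1, Polycomb antagonists and H3K9 lie between -1.47 and -0.78.

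Of 17 measured PRC1 subunits, which ubiquitinate histone H2A or compact chromatin, 13 had a difference below 0, with a median of -0.78 (-0.34 without RB-deficient arrays 1 and 2). SCMH1 differed by -2.70 (SE 1.12, adjusted p 0.333; -0.85 without those arrays, where array 1 was at the floor), PCGF5 by -1.11 (SE 0.51, adjusted p 0.376) and PHC1 by -1.29 (SE 0.66, adjusted p 0.419). Of 4 measured genes that oppose Polycomb, 3 were below 0, with a median of -1.47 (-0.10 without RB-deficient arrays 1 and 2). ASXL1, a cofactor of the H2A deubiquitinase, differed by -2.68 (SE 0.99, adjusted p 0.288; -1.004 without those arrays, array 1 being at the floor), ASXL2 by -1.21 (SE 0.54, adjusted p 0.369) and KDM6A, a demethylase of histone H3 lysine 27, by -1.73 (SE 0.94, adjusted p 0.447). Without RB-deficient arrays 1 and 2, ASXL2 was at -0.37 and KDM6A turned to 0.46.

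The histone H3 lysine 9 and heterochromatin list had 13 of 15 genes below 0, with a median of -0.78 (-0.49 without RB-deficient arrays 1 and 2). In 5 of the 15 (33.3%) the groups did not overlap, all lower, against 15.3% of all genes, and the same 5 had an unadjusted p under 0.05, against 10.8%: KDM4A, KDM4C, SETDB1, DAXX and TRIM28. KDM4A, a demethylase of histone H3 lysine 9 and lysine 36, read 5.65, 5.03 and 6.21, then 2.97, 2.87 and 3.96. All its values in RB-deficient arrays lay over 1 log2 unit below the RB-proficient range, and the difference was -2.37 (SE 0.55, adjusted p 0.206). Its values in RB-deficient arrays are dim. With an offset of 16 added before log2 the KDM4A difference was -1.35, with limma's lowest adjusted p of its settings, 0.0688. SETDB1, a methyltransferase of the same residue, read 4.46, 4.08 and 6.02, then 2.73, 2.56 and 2.99 (difference -2.09, SE 0.60, adjusted p 0.227; -1.03 with the offset of 16). KDM4C, a relative of KDM4A, differed by -2.41 (SE 0.79, adjusted p 0.261), and by -0.71 without RB-deficient arrays 1 and 2. DAXX, a histone H3.3 chaperone, and TRIM28, the corepressor that recruits SETDB1, differed by -1.81 (SE 0.60) and -1.32 (SE 0.46).

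Partners and readers of DNA methylation were below 0 for 9 of 11 genes, with a median of -0.36. USP7, a deubiquitinase that stabilises DNMT1 and UHRF1, read 8.39, 7.59 and 8.38, then 5.90, 7.27 and 7.71 (difference -1.16, SE 0.60, adjusted p 0.424; -0.41 without RB-deficient arrays 1 and 2). UHRF2 differed by -1.58 (SE 0.82, adjusted p 0.428; 0.42 without RB-deficient arrays 1 and 2) and CDCA7L, a relative of the HELLS partner CDCA7, by -0.93 (SE 0.70, adjusted p 0.577). Of 7 genes of active demethylation, 4 were above and 3 below 0, with a median of 0.17. TET1, which oxidises methylcytosine, differed by 1.01 (SE 0.69, adjusted p 0.539), TET2 by -0.60 (SE 0.62) and GADD45B by 0.53 (SE 0.57). Without RB-deficient arrays 1 and 2 these were 0.49, 0.39 and 0.15, so TET2 turned.

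Genes that these systems are known to keep silent in somatic cells were also read. Of 12 measured germline genes, a class known to be silenced by promoter DNA methylation, 9 had a difference above 0 and 4 lay higher with no overlap between the groups (33.3%, against 7.12% of all genes). At an unadjusted p under 0.05, 3 lay higher (25%, against 2.85%), and none passed over all genes in limma's fit. TDRD1, a Tudor protein of the piRNA pathway, read 4.75, 4.30 and 4.70, then 6.81, 6.09 and 5.59 (difference 1.58, SE 0.51, adjusted p 0.258). DPPA3, a germ cell and oocyte factor, read 3.76, 2.99 and 2.30, then 4.003, 5.22 and 4.37 (difference 1.52, SE 0.58, adjusted p 0.297). DDX4, a germ cell RNA helicase, read 2.16, 2.74 and 2.78, then 3.05, 5.29 and 4.18 (difference 1.61, SE 0.63, adjusted p 0.308). The fourth of the genes without overlap was BRDT, a testis bromodomain protein, which differed by 1.09 (SE 0.50). With the offset of 16 the differences of TDRD1, DPPA3, DDX4 and BRDT were 1.14, 0.69, 0.70 and 0.52. The list median was 0.77, and 0.77 without RB-deficient arrays 1 and 2, which leaves array 3 alone. It was 0.42 with an offset of 16 added before log2 and 0.37 without the dimmest 50% of genes. No detection calls entered, and it is unknown whether these dim signals lay above background.

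Developmental regulators that carry the Polycomb mark in many cell types had no common direction. Of 15 measured, 8 were above and 7 below 0, with a median of 0.20 (-0.17 without RB-deficient arrays 1 and 2). Of these, 1, HOXD13, lay higher with no overlap (6.67%, close to the 7.12% of all genes). OLIG2 differed by -1.36 (SE 0.95), PAX7 by 0.76 (SE 0.57) and WT1 by 0.68 (SE 0.54), with adjusted p-values of 0.550, 0.579 and 0.602. PAX7 was at 0.10 and WT1 at 0.13 without RB-deficient arrays 1 and 2. Proliferation markers were below 0 for 9 of 14 genes (64.3%, against 58.6% of all genes), with a median of -0.39 and none passing over all genes. That median was 0.04 without RB-proficient array 3, -0.0023 without RB-deficient array 2 and -0.76 without RB-proficient array 1, so its direction rests on single arrays. BUB1, a mitotic checkpoint kinase, differed by -1.89 (SE 0.64, adjusted p 0.271), MCM3, of the replicative helicase, by -1.73 (SE 0.65, adjusted p 0.295) and PLK1, a mitotic kinase, by -1.06 (SE 0.69, adjusted p 0.520). These were -0.99, -0.58 and 0.08 without RB-deficient arrays 1 and 2.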

How the data were processed

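Expression was measured on 6 single-channel arrays, 3 per group. Per the labels' protocols, total RNA was amplified (WT-Ovation Pico, NuGen) before biotin labelling. The submitters' processing notes name Affymetrix Expression Console 1.1. How background and normalization were handled is not given in the sources used here. Values as deposited by the authors were linear intensities, from 3.53e-05 to 7075. Arrays were scaled to the same median, 26.8, floored at an intensity of 1 and log2 transformed. Of 33297 probe sets, 19460 had 1 symbol and entered, 1754 had several and 12083 were not listed. All 18417 genes were fitted in R 4.3.3 by limma 3.58.1 (two-sided, lmFit then eBayes, no covariates), with Benjamini-Hochberg adjustment over all of them and a threshold of 0.05. The fit was tried on simulated data in which 200 genes were changed. When the change was 2-fold, 0.4% of these genes were recovered. The share was 2% when it was 4-fold, and rose to 28.8% at 8-fold. Even with a 32-fold change it was 75.2%. No batch is given in the labels, and the number of arrays limits the precision. The 9 genes and all lists were chosen with earlier results of these data known. Named genes are the 9, the 3 smallest p of each list, 3 paralogs, RB1, ERBB2, ACTB and GAPDH, and the 2 list genes nearest to each of the 9 in pattern. DAXX, TRIM28, RBBP7, BRDT, HOXD13, EPCAM, COL3A1, CDH5, TBP and HPRT1 were named after their values were seen. Promoter sequences are from RefSeq on GRCh38.p14. Alternatives were other scalings, filters, floors, eBayes options, probe set rules, a replicate block and arrays left out; leaving out both RB-deficient arrays 1 and 2 was added after seeing the data.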

Additional observations from a re-analysis of the deposited data

How the results depend on the processing

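None of the 9 genes passed in any of the 19 alternative settings. SUZ12, EED, DNMT1, HELLS, DNMT3B and SUV39H1 kept their direction in each setting that could be fitted, SUV39H1 not being fitted under the filters on the dimmest 25% and 50% of genes. EZH2 was at 0.0125 and DNMT3A at 0.0726 after quantile normalization, and at 0.0778 and 0.0760 after centring. UHRF1 was at -0.53 with the mean of its probe sets, -0.0662 with array weights and -0.61 without RB-deficient arrays 1 and 2, which also turned UHRF1 minus UHRF2 to -1.02. With single arrays left out, EZH2 ran from -0.76 to 0.33, DNMT3A from -0.39 to 0.19, UHRF1 from -0.44 to 0.44, SUZ12 from 0.04 to 0.73, EED from 0.01 to 0.46 and DNMT3B from -0.57 to -0.04, so the last 3 came close to 0; the causes were not tested. Without RB-deficient arrays 1 and 2 the group holds 1 array, which is assumed to vary like the RB-proficient ones. Groups of the 9 did not overlap for 3 genes after quantile normalization (EED, DNMT1, HELLS), 2 after centring (DNMT1, HELLS) and 1 without scaling (DNMT1), all higher. With single arrays left out 0 to 2 did not overlap, and in these SUV39H1 (without RB-proficient array 1), EZH2 and DNMT3B (both without RB-deficient array 1) lay lower. Without RB-deficient arrays 1 and 2 it was 5, with EZH2, DNMT3B and UHRF1 lower and EED and HELLS higher. There a gene counts whenever the 1 array left is the highest or the lowest, so this count cannot be set against the others. The shares of all genes without overlap in these alternative settings are not given here, so the counts are a description only. Centring moved the median of all genes from -0.21 to -0.08 and the share higher among genes at an unadjusted p under 0.05 from 20.8% to 32.5%. The count of genes passing was 1 as reported, 0 without the dimmest 25%, 4 without the dimmest 50%, 0 with all probe sets in the adjustment, where this share was 33.6%, 61 with eBayes' trend and robust options, 193 with an offset of 16, 58 with a floor of 16, 0 without RB-deficient arrays 1 and 2 and 0 to 4 with single arrays left out. At an unadjusted p under 0.05, the genes higher numbered 525 as reported, 224 without the dimmest 50%, 1348 with all probe sets and 247 to 984 with single arrays left out, and the genes lower 1996 as reported and 984 to 2907 with single arrays left out. Medians of the 9 genes and of the lists moved by less than the spread between arrays in 174 cases and by more in 16.

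Same-numbered arrays did not deviate together (correlations of -0.12, 0.07 and -0.11 over the 3 numbers), so no pairing was used. With the replicate number as a block, 1 gene passed and 0 of the 9 did, with DNMT1 at an adjusted p of 0.454 and SUV39H1 at 0.370.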
